A study of Mus musculus with 8 samples.

Results

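The members described here were 57 mouse genes of DNA repair and the p53 response, and the data were all NF-YA peaks whose gene symbol equalled a member. By this rule 20 of the 7196 peaks belonged to members, and they fell on 16 of the 57 genes. The other 41 members had no peak under their symbol. The genes cover p53 itself with its regulators, the CDK inhibitors, apoptosis regulators, the Gadd45 stress sensors, the checkpoint kinases, and the repair of strand breaks, crosslinks, mismatches, damaged bases and bulky lesions.

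NF-Y is a trimer of NF-YA, NF-YB and NF-YC that recognises the pentamer CCAAT, and NF-YA is the subunit that contacts these bases. Its sites are known mainly from the proximal promoters of cell cycle and housekeeping genes. After DNA damage, the kinases ATM and ATR with CHEK1 and CHEK2 signal to p53, which induces genes that halt the cell cycle, such as *Cdkn1a*, or that promote apoptosis, such as *Bax* and *Bbc3*, while dedicated enzymes remove or rejoin the damaged DNA.

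NF-YA binding was measured by CUT&RUN, in which a nuclease held by an antibody on chromatin releases the bound DNA for sequencing. The cells were muscle stem cells (MuSCs) of C57BL/6 mice, sorted, cultured and labelled as activated or proliferating. In Taf4asKO MuSCs, *Taf4a*, which encodes a subunit of the general transcription factor TFIID, had been inactivated in adult mice by tamoxifen through a Cre recombinase driven from *Pax7*, a gene of MuSCs. The Control libraries are labelled Control by genotype and WT by title, and the study describes its Control mice in general as carrying floxed *Taf4a* alleles, with or without Cre, without saying so for these libraries. The comparison asks whether NF-YA occupancy at these genes depends on TAF4A, in a study in which the mutant cells were examined for DNA damage and genome instability. Each genotype had 2 NF-YA libraries, and the 4 IgG libraries of the labels were not analysed here. The labels do not say whether the libraries came from separate animals or cultures, so that p-values measure the spread between these libraries, which may be technical. Binding data hold no marker expression, and the cell type was not checked against it.

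The values are reads in a peak, normalised between libraries and rounded by the authors, and are given below as normalised reads. Reads in peaks, recovered from the step that 1 read makes in each library, numbered 351729 and 111269 in Control replicates 1 and 2 and 735063 and 505389 in Taf4asKO replicates 1 and 2. Because 1 read was worth 3.26 normalised reads in Control replicate 2 and 0.431 in Taf4asKO replicate 1, low values were coarser in the former. Both Control libraries held fewer reads than both Taf4asKO libraries, so the number of reads and the genotype cannot be told apart. For the targeted gene, listed as *Taf4*, the peak 1190 bases from the start measured 99 and 117 in the Control libraries and 13 and 18 in the Taf4asKO libraries, a decrease past the test (log2 fold change −2.74, SE 0.25, adjusted p = 0.00112). A weaker *Taf4* peak 248 bases from the start measured 14 and 20 against 10 and 14 (log2 fold change −0.47, SE 0.40, adjusted p = 0.550), and another, of 8 and 10 against 5 and 5, was too weak to be tested. These peaks were not set against the deleted exons and do not check the deletion itself.

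The share of members with a peak was 28.1% (95% Wilson interval 18.1 to 40.8), and the share of all 21924 protein-coding symbols of the GENCODE annotation was 13.8%. Within 1000 bases of the assigned start, 14 of 57 members (24.6%) and 10.2% of the protein-coding symbols had a peak. These shares are descriptions, since the members were not drawn at random. The counts by role are small, rest on the symbol rule and were not tested against each other. All 3 Gadd45 genes and 3 of 4 apoptosis regulators had a peak by symbol, those of *Bbc3* and *Mcl1* lying 8629 and 9456 bases from the start. So did 3 of 7 genes of base excision and single-strand break repair, 1 of 4 checkpoint kinases, 1 of 4 genes of the Fanconi anaemia pathway, 1 of 2 mismatch repair genes, 2 of 8 genes of nucleotide excision repair and 2 of 13 genes of homologous recombination. No peak carried the symbol of any of the 4 genes of p53 and its regulators, the 2 CDK inhibitors, the 3 end joining genes or the 3 genes of the chromatin response to breaks, of which 2 had a peak under a newer symbol.

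**Figure D1:**
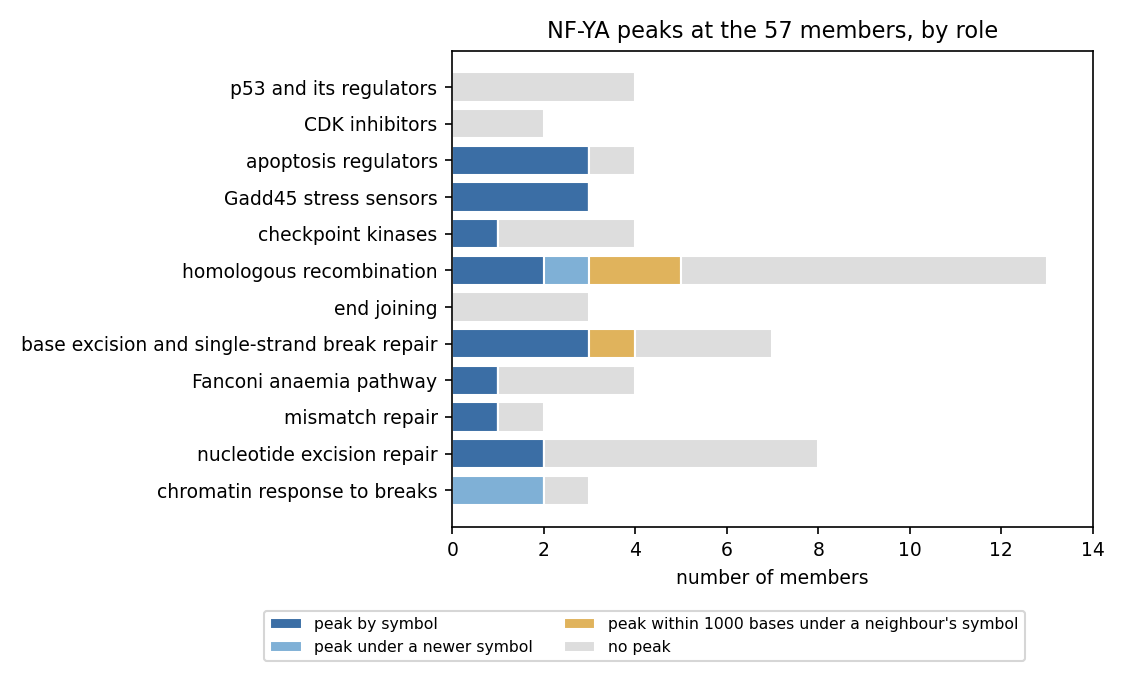
Number of members (x axis) in each role (y axis), divided by whether an NF-YA peak was listed under the member's symbol, under a newer symbol of the same gene, under a neighbour's symbol within 1000 bases of the member's start, or in none of these ways. The Gadd45 genes were all covered, and 8 of 13 homologous recombination genes had no peak of these kinds.

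The symbol rule missed peaks that lie at members' starts. A peak was listed for 3 members under a newer symbol of the same gene ID, namely *H2afx* (listed as *H2ax*), *Mre11a* (*Mre11*) and *Trp53bp1* (*Tp53bp1*), which brought the number of members with a peak to 19. For 3 more members, *Brca1*, *Rad54l* and *Apex1*, a peak lay within 1000 bases of the start but was assigned to a neighbouring gene whose start was nearer. With these, 22 members had a peak by symbol or within 1000 bases, and 35 members had none. The 35 were *Trp53*, *Mdm2*, *Mdm4*, *Cdkn2a*, *Cdkn1a*, *Cdkn1b*, *Bax*, *Atm*, *Atr*, *Chek1*, *Brca2*, *Bard1*, *Palb2*, *Rad51c*, *Rad52*, *Rad50*, *Nbn*, *Xrcc2*, *Xrcc5*, *Xrcc6*, *Lig4*, *Lig3*, *Parp1*, *Parp2*, *Fancc*, *Fancd2*, *Fanci*, *Msh6*, *Ercc3*, *Ercc4*, *Xpa*, *Xpc*, *Ddb1*, *Ddb2* and *Rnf8*. Of these, *Bax* had 3 peaks within 10000 bases of a start, none of them under its symbol. The other 34 had no peak within that distance or in the gene. A missing peak means that none was called there at the depth of these libraries, and not that NF-YA is absent from the promoter.

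The sequences below are shown because they carry CCAAT pentamers under the member peaks with the highest Control signal. They are parts of the peaks and do not hold every pentamer: the peaks of *Chek2*, *Pms2* and *Ogg1* had 3 each and that of *Ung* had 5. Each is printed from 5′ to 3′ on the strand of the gene, from the RefSeq assembly of GRCm38 (mm10), with CCAAT and its reverse complement ATTGG in capitals and without bases annotated as UTR. The stretches are chr5:110839778-110839978 (plus strand) for *Chek2*, chr5:143909873-143909963 (plus) for *Pms2*, chr6:113326762-113326832 (plus) for *Ogg1*, chr5:114130754-114130870 (plus) for *Ung*, chr7:24546914-24546988 (plus) for *Xrcc1*, chr8:123318577-123318646 (minus) for *Fanca* and chr7:80535135-80535283 (minus) for *Blm*.
Chek2: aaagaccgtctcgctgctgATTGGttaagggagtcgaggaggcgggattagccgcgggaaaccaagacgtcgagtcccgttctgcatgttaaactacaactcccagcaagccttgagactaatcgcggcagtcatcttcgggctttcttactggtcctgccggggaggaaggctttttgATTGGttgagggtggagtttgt
Pms2: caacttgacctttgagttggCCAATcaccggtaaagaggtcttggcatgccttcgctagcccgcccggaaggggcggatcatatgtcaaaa
Ogg1: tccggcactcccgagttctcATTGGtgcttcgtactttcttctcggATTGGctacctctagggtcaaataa
Ung: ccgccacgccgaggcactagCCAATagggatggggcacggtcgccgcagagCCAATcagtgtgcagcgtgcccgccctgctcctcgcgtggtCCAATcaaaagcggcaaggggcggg
Xrcc1: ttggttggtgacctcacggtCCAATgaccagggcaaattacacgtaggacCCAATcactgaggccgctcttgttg
Fanca: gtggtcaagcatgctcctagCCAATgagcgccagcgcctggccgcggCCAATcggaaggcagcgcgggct
Blm: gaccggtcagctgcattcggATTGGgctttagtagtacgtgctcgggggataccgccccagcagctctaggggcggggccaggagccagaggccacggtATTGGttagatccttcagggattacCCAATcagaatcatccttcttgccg

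The Gadd45 paralogues are set side by side to compare one family, *Gadd45g* being added after its values were seen. They lie at chr6:67037469-67037513 (minus strand), chr10:80929932-80930015 (plus) and chr13:51846577-51846621 (plus). In *Gadd45a* the pentamer was centred 34 bases upstream of the start, in *Gadd45b* 119 and 80 bases upstream, and in *Gadd45g* 79 bases upstream, each time as CCAAT on the gene's own strand.
Gadd45a: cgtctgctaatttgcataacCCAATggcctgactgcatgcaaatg
Gadd45b: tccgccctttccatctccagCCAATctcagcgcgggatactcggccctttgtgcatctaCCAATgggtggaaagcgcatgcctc
Gadd45g: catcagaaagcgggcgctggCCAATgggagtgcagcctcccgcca

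*Bcl2l1* is shown as the strongest member peak without CCAAT in its central 200 bases. Its pentamers are centred 283 and 331 bases downstream of the start, towards the edge of a peak of 402 bases, at chr2:152831375-152831467 on the minus strand. The shared promoter of *Xrcc3* and *Zfyve21* (at chr12:111813951-111814136, minus strand, the strand of *Xrcc3*) and that of *Brca1* and *Nbr1* (at chr11:101552017-101552061, minus strand, the strand of *Brca1*) are added because the peaks on them were assigned to the neighbour, and both were chosen after their values were seen. The *Xrcc3* stretch holds 5 pentamers, among them an ATTGG directly followed by CCAAT.
Bcl2l1: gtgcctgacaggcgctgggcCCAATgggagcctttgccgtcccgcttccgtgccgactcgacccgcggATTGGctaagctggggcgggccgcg
Xrcc3: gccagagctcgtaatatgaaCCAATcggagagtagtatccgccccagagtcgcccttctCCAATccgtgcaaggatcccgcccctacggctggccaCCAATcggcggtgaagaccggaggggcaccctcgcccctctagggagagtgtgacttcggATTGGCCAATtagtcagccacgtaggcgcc
Brca1: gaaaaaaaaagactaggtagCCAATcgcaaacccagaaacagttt

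Within 200 bases around the centre, 14 of the 20 member peaks held CCAAT or ATTGG (70.0%, 95% Wilson interval 48.1 to 85.5), against 78.5% of all peaks. Of the 18 member peaks within 1000 bases of their start 13 held it (72.2%), against 87.1% of all such peaks. At least 2 pentamers were found in 10 of 20 member peaks (interval 29.9% to 70.1%) and in 36.4% of all peaks. Of all peaks within 1000 bases of a start, 49.6% held at least 2. The intervals of the member shares were wide and included the value of the whole table in each case. The member peaks without the pentamer in the centre were those of *Bcl2l1*, *Mcl1* and *Xrcc3*, the weaker *Fanca* peak and the *Ercc1* peaks 38 bases upstream and 338 bases downstream of the start. The box GGGCGG, searched on both strands and able to overlap ATTGG by its G bases, was present in 11 of 20 member peaks (55.0%) and in 27.8% of all peaks, but in 54.5% of all peaks within 1000 bases of a start.

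In position the member peaks were promoter peaks with few exceptions. Of the 20, 18 were centred within 1000 bases of the assigned start and 12 within 200 bases. Of all 7196 peaks, 2776 lay within 1000 bases of an assigned start. The median width of the 20 peaks was 261 bases against 171 bases over all peaks, which include peaks assigned to no gene. Widths were not compared among peaks near starts alone. Of the 35 pentamers in or at the centre of the 18 near peaks, 20 lay upstream of the start, 15 of them within 150 bases, and 15 lay downstream. On the strand of the gene 23 read CCAAT and 12 read ATTGG. *Ung*, *Xrcc1* and *Ercc1* had their strongest peak 479, 646 and 603 bases downstream of the assigned start, in an intron, and their pentamers lay there too. Another annotated start of *Ung* lay 61 bases from the peak centre, one of *Xrcc1* 215 bases and one of *Ercc1* 221 bases away. *Ung* is known to use alternative promoters for its nuclear and mitochondrial forms.

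**Figure D2:**
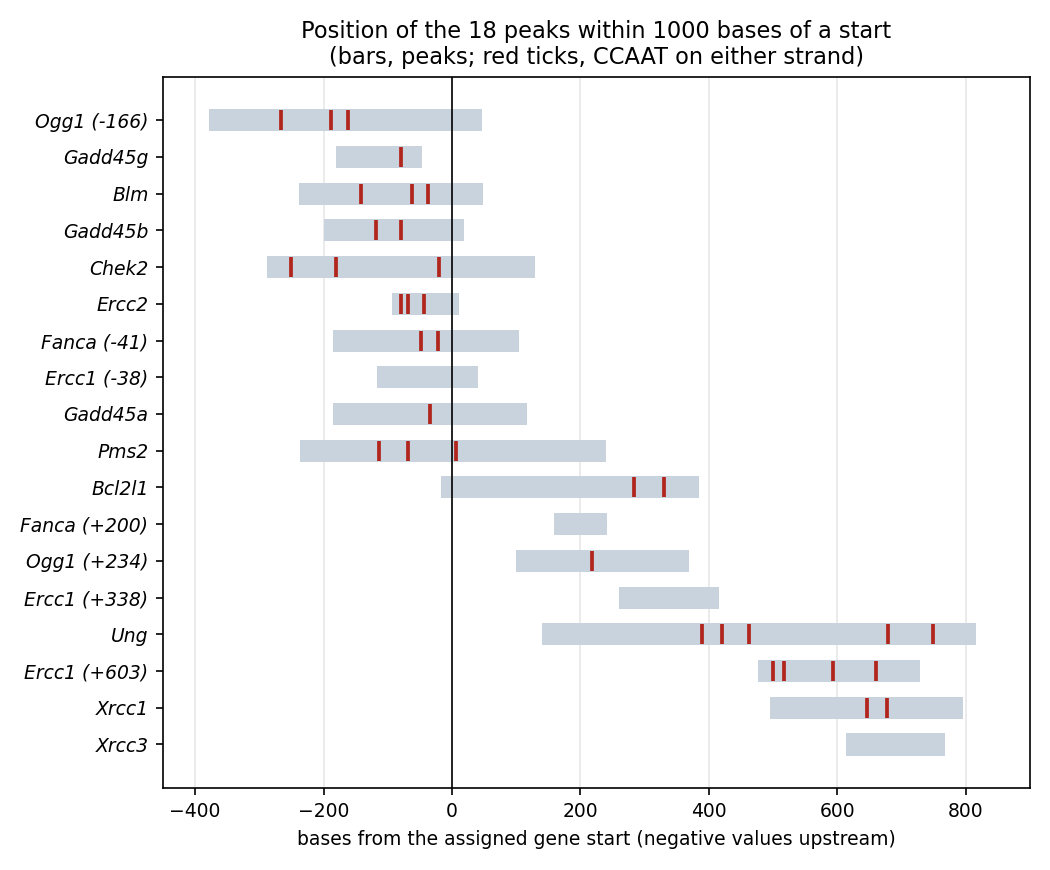
Position of the 18 member peaks within 1000 bases of a start, with bases from the assigned start on the x axis (negative values upstream, vertical line at the start) and 1 row per peak. Bars span the peaks and red ticks mark CCAAT on either strand; ticks gather upstream of the start in *Blm*, *Ercc2* and *Gadd45b* and downstream in *Ung*, *Xrcc1* and *Ercc1*.

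CCAAT occurred in the promoters of members with and without a peak. RefSeq promoters, 250 bases before to 50 bases after a start, were matched for 49 of 57 members, and CCAAT on either strand occurred in 29 of these (59.2%) and in 41.1% of 27025 genes. Among members with a peak by symbol within 1000 bases 11 of 14 had it (78.6%), against 85.7% of all genes with such a peak. Among members with no peak by symbol, by gene ID or within 1000 bases it was 13 of 28 (46.4%). The *Cdkn1b* promoter held 3 pentamers and had no peak. Promoters of *Nbn*, *Rad50*, *Xrcc2*, *Fancd2*, *Xpc*, *Ddb2*, *Ercc3* and *H2afx* were not matched.

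No member peak was called different between the genotypes. Of the 20 member peaks, 19 had a mean of at least 10 normalised reads over the 4 libraries and were tested with limma together with all other such peaks. At an adjusted p under 0.05, 0 of 19 member peaks passed, where 0.948% of the 4746 tested peaks did (45 peaks). At an unadjusted p under 0.05 there were 2 member peaks, *Bcl2l1* and the stronger *Fanca* peak, or 10.5% of those tested, against 17.9% of all tested peaks. This count was 5 with the libraries scaled to equal medians and 0 without Taf4asKO replicate 1. The adjusted p of member peaks ranged from 0.155 to 0.969. The 95% interval of the fold change lay within a change of 2-fold in either direction for 15 of 19 member peaks, including all 8 whose mean reached 100. The share over all tested peaks was not computed, and the intervals do not cover the choice of scaling.

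The signal in the member peaks covered a wide range. It is the total of a peak and not a value per base, so that wider peaks collect more reads. The Control mean was 373.5 at the *Chek2* peak and 1.5 at the *Mcl1* peak, with a median of 86.0 over the 20 peaks and 17.0 over all peaks. Among peaks within 1000 bases of a start, the median Control mean was 98.5 for the 18 member peaks and 50.5 for all 2776.

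**Figure D3:**
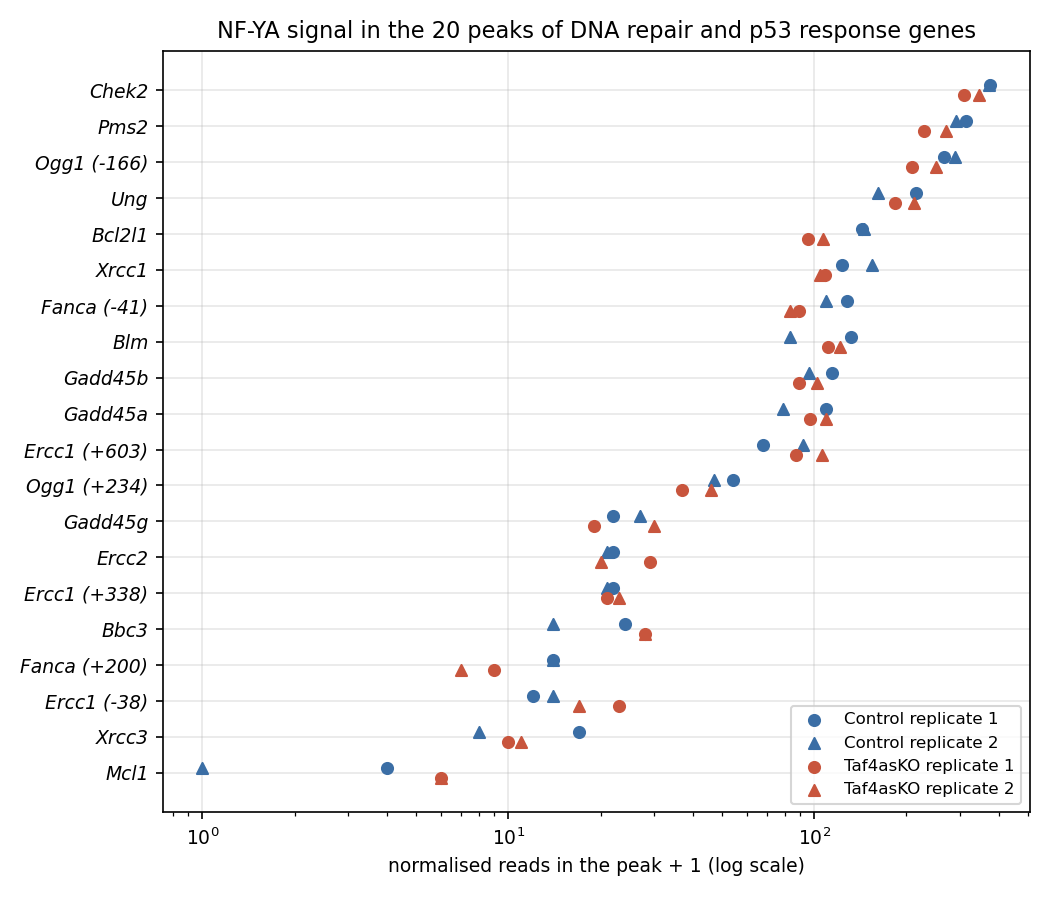
Normalised reads plus 1 (x axis, log scale) in each of the 4 NF-YA libraries for the 20 member peaks (y axis, ordered by Control mean; the offset from the start in bases is given where a gene has several peaks). Control libraries are blue and Taf4asKO libraries red, with circles for replicate 1 and triangles for replicate 2; at *Bcl2l1* the colours are apart and at *Ung*, *Blm* and the Gadd45 genes they mix.

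Among the checkpoint kinases, *Chek2*, which encodes a kinase activated downstream of ATM, had the strongest peak listed under a member's own symbol and the 122nd highest Control mean of the table. Its peak measured 375 and 372 normalised reads in the Control libraries and 307 and 344 in the Taf4asKO libraries. Both mutant values lay below both Control values, with a log2 fold change of −0.20 (SE 0.12, adjusted p = 0.410). The peak was centred 79 bases upstream of the *Chek2* start, in the interval shared with *Hscb*, which is transcribed in the opposite direction, so that it cannot be ascribed to *Chek2* alone. *Atm*, *Atr* and *Chek1* had no peak.

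The Gadd45 proteins bind PCNA and CDK1 and act in growth arrest and repair. The *Gadd45b* peak measured 113 and 95 in the Control libraries and 88 and 101 in the Taf4asKO libraries. The *Gadd45a* peak measured 108 and 78 against 96 and 108, with a log2 fold change of 0.15 (SE 0.20, adjusted p = 0.720). The *Gadd45g* peak, the weakest of the family, measured 21 and 26 against 18 and 29. The non-coding gene *E230016M11Rik* also starts within 1000 bases of the *Gadd45a* peak. In all 3 genes the genotypes overlapped, and the SD of the Control libraries exceeded the difference between the means.

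Of the apoptosis regulators, *Bcl2l1*, which encodes the survival protein BCL-XL, had a promoter peak. It measured 142 and 144 in the Control libraries and 94 and 106 in the Taf4asKO libraries. The groups did not overlap, and the mean was 1.43-fold lower on the log2(value + 1) scale. The adjusted p was the lowest of the peaks listed under a member's own symbol (log2 fold change −0.51, SE 0.16, adjusted p = 0.155). The exact two-sided permutation test gave p = 0.333, the smallest that 2 against 2 libraries allow. Any peak without overlap gives this value, so the test does not set *Bcl2l1* apart. The peak was centred 184 bases downstream of the start in the gene's own intron.

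*Bbc3*, which encodes the p53-induced killer PUMA, was listed only with an intergenic peak 8629 bases upstream of its start. That peak measured 23 and 13 in the Control libraries and 27 and 27 in the Taf4asKO libraries (log2 fold change 0.61, SE 0.34, adjusted p = 0.367). Its value in Control replicate 2 rested on 3.99 reads, and the log2 fold change was 0.22 without this library and 1.00 without Control replicate 1. The *Mcl1* peak, 9456 bases downstream of the start of this survival gene and beyond its end, measured 3 and 0 against 5 and 5 and was too weak to be tested. Neither peak was at a promoter of the gene it was assigned to.

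Of the genes of base excision and single-strand break repair, *Ogg1*, *Ung* and *Xrcc1* had peaks by symbol. *Ogg1*, the glycosylase that removes 8-oxoguanine, had a peak 166 bases upstream of its start with 264 and 287 normalised reads in the Control libraries and 207 and 248 in the Taf4asKO libraries. A weaker peak 234 bases downstream, in a UTR exon, measured 53 and 46 against 36 and 45. At both peaks the mutant values lay below the Control values, with log2 fold changes of −0.28 (SE 0.14, adjusted p = 0.334) and −0.29 (SE 0.24, adjusted p = 0.526). Without Taf4asKO replicate 1 they were −0.15 and −0.13. An antisense gene, *Gm15492*, also starts within 1000 bases of these peaks.

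*Ung*, the glycosylase that removes uracil, had a peak of 676 bases with 214 and 160 normalised reads in the Control libraries and 183 and 210 in the Taf4asKO libraries. The groups overlapped, with a log2 fold change of 0.08 (SE 0.17, adjusted p = 0.829). *Xrcc1*, the scaffold of single-strand break repair, had 122 and 153 in the Control libraries and 107 and 103 in the Taf4asKO libraries. Its groups did not overlap, with a log2 fold change of −0.38 (SE 0.18, adjusted p = 0.294), which was −0.21 without Control replicate 2. *Pinlyp* starts within 1000 bases of this peak in the opposite direction. *Lig3*, *Parp1* and *Parp2* had no peak.

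Among the other repair pathways, *Pms2*, which encodes an endonuclease of mismatch repair, had a peak centred 2 bases downstream of its start. It measured 312 and 290 in the Control libraries and 228 and 268 in the Taf4asKO libraries, without overlap (log2 fold change −0.28, SE 0.14, adjusted p = 0.314). *Aimp2* starts within 1000 bases in the opposite direction, and a small peak of 11 and 7 against 13 and 10 on its side was assigned to *Aimp2*. *Msh6* had no peak.

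*Fanca*, a subunit of the Fanconi anaemia core complex, had a peak 41 bases upstream of its start with 127 and 108 normalised reads in the Control libraries and 88 and 82 in the Taf4asKO libraries. The groups did not overlap (log2 fold change −0.46, SE 0.18, adjusted p = 0.221). A narrow peak of 82 bases, 200 bases downstream, measured 13 and 13 against 8 and 6 (log2 fold change −0.82, SE 0.47, adjusted p = 0.376). The Control replicate 2 value of the latter rested on 3.99 reads, and the size of its fold change is accordingly uncertain.

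In nucleotide excision repair only *Ercc1* and *Ercc2* of the 8 members had a peak. *Ercc1*, a subunit of the endonuclease that cuts on the 5′ side of a lesion, had its strongest peak at 603 bases downstream with 67 and 91 in the Control libraries and 86 and 105 in the Taf4asKO libraries (log2 fold change 0.28, SE 0.21, adjusted p = 0.498), and the log2 fold change was 0.06 without Control replicate 1 and 0.50 without Control replicate 2. The groups overlapped there and at the peak 338 bases downstream, which measured 21 and 20 against 20 and 22. At the weak peak 38 bases upstream, 11 and 13 stood against 22 and 16, higher in both mutant libraries (log2 fold change 0.61, SE 0.37, adjusted p = 0.407).

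*Ercc2*, a helicase of TFIIH, had a peak of 21 and 20 in the Control libraries and 28 and 19 in the Taf4asKO libraries (log2 fold change 0.16, SE 0.32, adjusted p = 0.811). Its 3 pentamers were centred within 80 bases upstream of the start. The levels were 20.5 ± 0.707 (SD, n = 2) in Control and 23.5 ± 6.36 in Taf4asKO.

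Of the 13 homologous recombination genes, *Blm*, the helicase mutated in Bloom syndrome, had a peak 95 bases upstream of its start. It measured 131 and 82 in the Control libraries and 110 and 120 in the Taf4asKO libraries, with the mutant values between the Control values. The peak listed for *Xrcc3*, which acts in strand exchange, lay 691 bases inside the gene and measured 16 and 7 against 9 and 10.

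Peaks at members' starts under other symbols included some of the strongest. The shared promoter of *Xrcc3* and *Zfyve21* had a peak of 407 and 460 normalised reads in the Control libraries and 284 and 331 in the Taf4asKO libraries, 159 bases from an *Xrcc3* start. The groups did not overlap (log2 fold change −0.50, SE 0.13, adjusted p = 0.110), and with the libraries scaled to equal medians the difference passed the test (adjusted p = 0.0488). At *H2afx*, the histone variant that is phosphorylated at breaks, the peak measured 220 and 251 against 211 and 219, also without overlap (log2 fold change −0.13, SE 0.14, adjusted p = 0.650). It held 4 CCAAT pentamers.

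The peak at *Mre11a*, a nuclease of the complex with RAD50 and NBN, measured 68 and 62 against 53 and 61, and that at *Trp53bp1*, which directs breaks to end joining, 13 and 20 against 20 and 27 without any CCAAT. Near *Brca1*, which acts in the resection of broken ends, 2 peaks assigned to *Nbr1* lay 100 and 783 bases from a start. The nearer measured 99 and 114 in the Control libraries and 81 and 81 in the Taf4asKO libraries, and the farther 321 and 346 against 254 and 295. At both, the mutant values lay below the Control values. The peak shared by *Apex1*, the abasic site endonuclease, and *Osgep* measured 52 and 55 against 50 and 65, and that shared by *Rad54l* and *Pomgnt1* 30 and 26 against 26 and 26, both with overlap.

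Seen over the list, 11 of 19 tested member peaks had a lower and 8 a higher mean log2 value in Taf4asKO, and the median log2 fold change was −0.13, against −0.04 over all 4746 tested peaks. The genotypes did not overlap in 10 of 19 member peaks, against 47.9% of all tested peaks. In 8 member peaks (42.1%) both mutant values lay below both Control values, against 28.6% of all tested peaks, and in 2 (10.5%) both lay above, against 19.3%. Strong and weaker peaks are given apart, with no test of the difference in members. The 8 member peaks whose mean reached 100 had a median of −0.28, 6 of them without overlap, and the 971 peaks of this strength had a median of −0.22, with 59.0% lower without overlap. The 11 weaker member peaks had a median of 0.03, and all 3775 weaker peaks a median of 0.05.

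**Figure D4:**
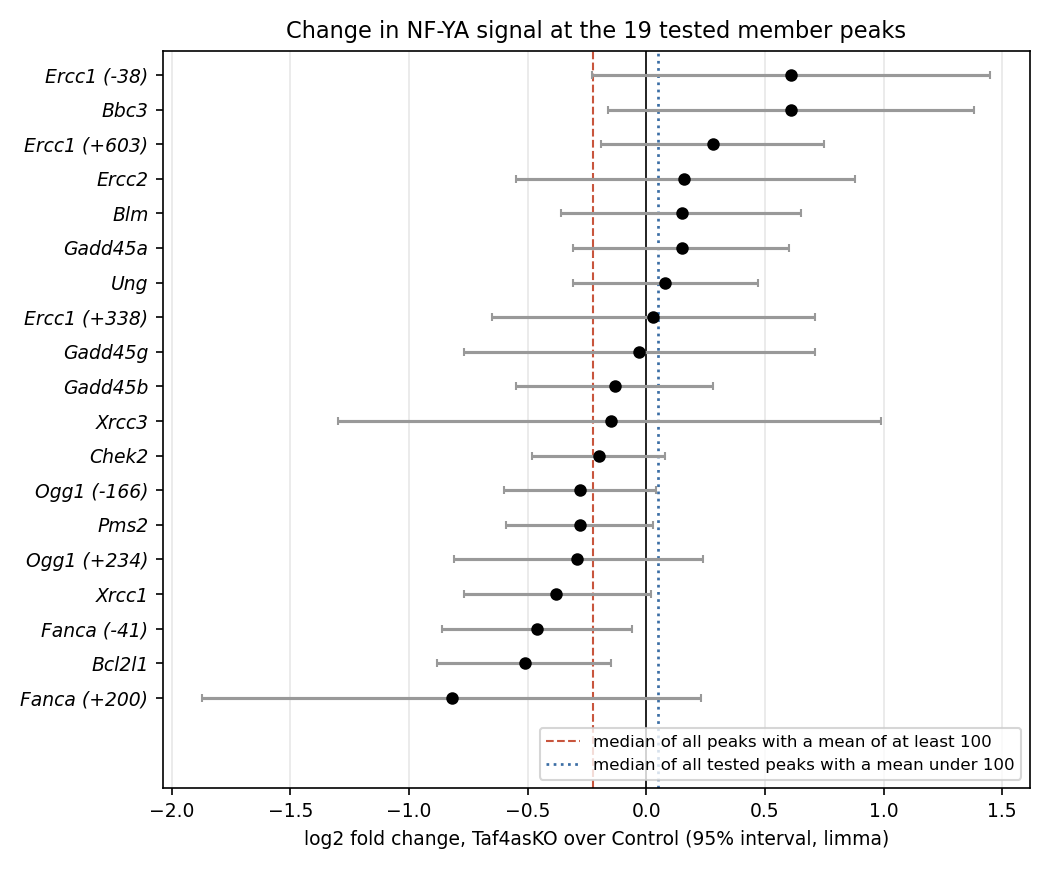
Log2 fold change of Taf4asKO over Control (x axis) with the 95% interval from limma for each of the 19 tested member peaks (y axis). Points left of 0 are lower in Taf4asKO; dashed and dotted lines give the median of the 971 strong peaks (−0.22) and of the 3775 weaker tested peaks (0.05), and the intervals of *Bcl2l1* and *Fanca* (−41) exclude 0 before adjustment.

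**Figure D5:**
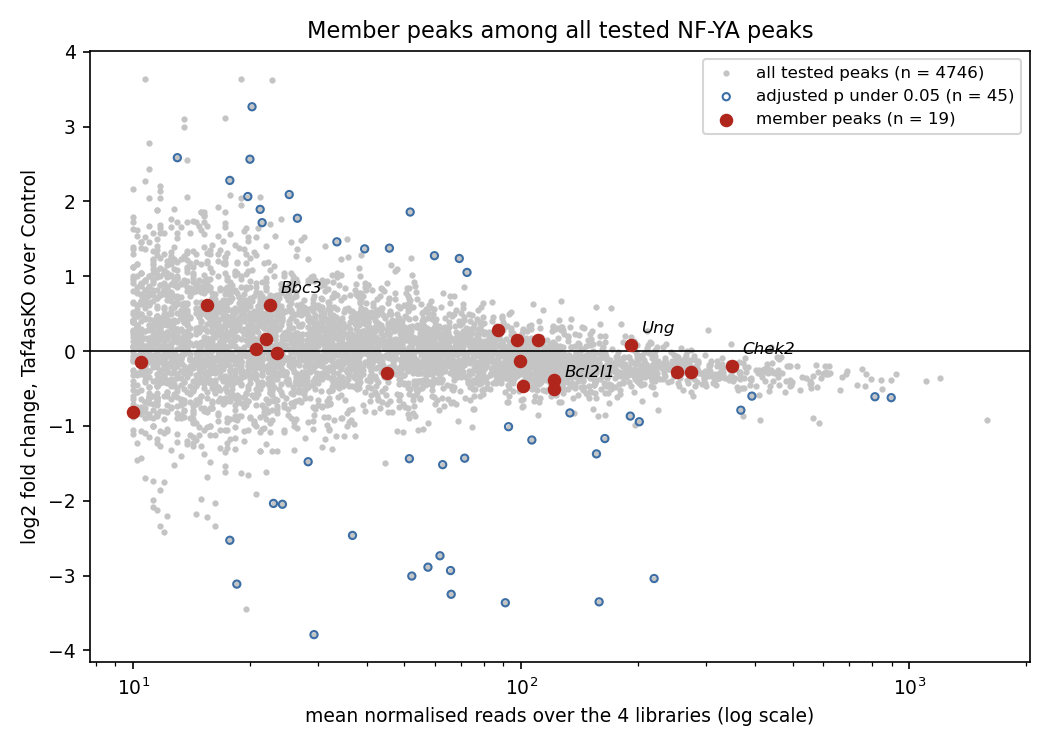
Mean normalised reads over the 4 libraries (x axis, log scale) and log2 fold change of Taf4asKO over Control (y axis) for all 4746 tested peaks (grey), the 45 peaks with an adjusted p under 0.05 (blue rings) and the 19 tested member peaks (red). Member peaks lie within the grey cloud, between −0.82 and 0.61, and none is ringed.

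The scaling of the libraries shifted all members together. The median log2 fold change of the 19 member peaks was 0.09 when the libraries were centred on the 971 strong peaks alone, where the median of all tested peaks was 0.18, and it was 0.01 with equal totals, where that of all peaks was 0.10. In each of these scalings the member median stood below that of all tested peaks, and no member peak passed the test. Strong peaks made up 8 of the 19 member peaks and 971 of all 4746. In the reported fit the member median was −0.28 against −0.22 among strong peaks, and 0.03 against 0.05 among weaker peaks. How far strength accounts for the member median was not tested.

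Other genes of the same pathways were listed beside the members. A peak was assigned to 15 of 30 other p53 response genes and to 19 of 74 other DNA repair genes. Of their 14 and 17 tested peaks 0 passed in either direction with limma, where 0.948% of all tested peaks passed. An unadjusted p under 0.05 was found for 4 and 3 of them, against 17.9% of all tested peaks. The median log2 fold changes were −0.05 and −0.08. CCAAT was present in 15 of the 21 peaks of the p53 list and in 21 of the 24 peaks of the repair list.

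The peaks named next were chosen after their values were seen. The peak at *Mdc1*, which binds phosphorylated H2AX, measured 341 and 310 normalised reads in the Control libraries and 260 and 272 in the Taf4asKO libraries. The peak at *Ccng2*, a cyclin of growth arrest, measured 250 and 277 against 164 and 191, with the lowest adjusted p of the p53 list (0.107). At *Usp1*, a deubiquitinase of the Fanconi anaemia pathway, 305 and 323 stood against 234 and 251 (adjusted p = 0.181). In *Mdc1*, *Ccng2* and *Usp1* the mutant values lay below the Control values without passing the test. The other 3 peaks of the p53 list with an unadjusted p under 0.05 were higher in both mutant libraries. They lay 5130 bases from the start of the stress sensor *Sesn2* (147 and 127 against 200 and 207, adjusted p = 0.110), 1394 bases from that of *Bcl2l11*, which encodes the apoptosis inducer BIM (18 and 20 against 36 and 39, adjusted p = 0.130), and at the receptor gene *Eda2r* (13 and 3 against 21 and 23, adjusted p = 0.186). At *Rad54b*, a DNA translocase of recombination, 9 and 10 stood against 27 and 20, with the lowest adjusted p of the repair list (0.146), and here both mutant values were higher.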

How the data were processed

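NF-YA CUT&RUN was analysed in 2 Control and 2 Taf4asKO libraries, grouped by the labels. The submitters' processing notes name Trimmomatic 0.39, STAR 2.7.11a, Picard 3.1.1, featureCounts and DESeq2 1.36.0 and the build mm10. The deposited values are a score: the authors merged the peaks of all libraries, counted reads in them, normalised the counts with DESeq2 and rounded the result. The authors assigned each peak to the nearest gene start within 10000 bases, and the deposited distance is used in bases.

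Steps between the values gave the worth of 1 read, but in the Taf4asKO libraries it was below the rounding unit, so no count test was run. Instead, limma 3.58.1 in R 4.3.3 was fitted to log2(value + 1) of all 4746 peaks with a mean of at least 10 with a mean-variance trend, and p-values were adjusted over all of them by the Benjamini-Hochberg method. Fold changes are on this scale and understate the change of low peaks. Both steps were tested on simulated data.

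Members and lists were chosen with earlier results of these data known. Every member with a peak was named with its values, and fold changes were given for the 5 highest Control means, the 5 largest decreases and the 5 largest increases, together with neighbours' peaks at *Xrcc3* and *H2afx* chosen after seeing the values. Sequences came from the RefSeq copy of GRCm38, placed with GENCODE M21. Of 3978 assigned gene IDs, 3972 were found there. Intervals of shares are 95% Wilson intervals and cover counting error only. Python 3.11.15, pandas 2.3.3 and pysam 0.24.0 were used. The alternatives were other scalings, no minimum, a pseudocount of 5, a threshold of 0.1, weights by reads, the replicate block and leaving out each library, and other assignments of peaks and windows for CCAAT. Some values of the pathway lists are not reported here.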

Additional observations from a re-analysis of the deposited data

How the results depend on the processing

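No alternative called any of the tested member peaks, and 29 of 30 values of the summary results and 168 of 176 of the named peaks kept their direction and side of the threshold or stayed close to the reported value. The median log2 fold change over member peaks moved to 0.09 when centred on the 971 strong peaks, whose mean reached 100, by more than the replicate spread, and ranged from −0.23 to −0.01 when a library was left out. Centring on strong peaks turned *Chek2* to 0.03, and the *H2afx* peak to 0.10, which was 0.02 with equal totals. Leaving out 1 library at a time, *Gadd45a* ranged from −0.08 (without Control replicate 2) to 0.38, *Ung* from −0.13 (also without Control replicate 2) to 0.29, with −0.02 without Taf4asKO replicate 2, and *Ercc2* from −0.10 (without Taf4asKO replicate 1) to 0.43. Without Taf4asKO replicate 1, *Chek2* moved to −0.12, *Pms2* to −0.17, the *Ogg1* peaks to −0.15 and −0.13 and the *Ercc1* peak 38 bases upstream to 0.39, and without Taf4asKO replicate 2 the weaker *Ogg1* peak moved to −0.45 and the *Ercc1* peak 603 bases downstream to 0.14. The latter ranged from 0.06 (without Control replicate 1) to 0.50 (without Control replicate 2), and leaving out a Control library also moved *Xrcc1* to −0.21 and *H2afx* to −0.03 (both without replicate 2) and the weaker *Ogg1* peak to −0.19 and *H2afx* to −0.22 (both without replicate 1). In such fits the remaining library of a genotype was assumed to vary like the other genotype. The *Xrcc3* and *Zfyve21* peak passed the test with equal medians only (log2 fold change −0.52), and its adjusted p ranged from 0.0488 to 0.739 over all alternatives. That of *Bcl2l1* ranged from 0.0781 to 0.739. Member peaks with an unadjusted p under 0.05 numbered 2 in the reported fit, 5 with equal medians, 1 with equal totals, 3 when centred on strong peaks and 2 with the block, and from 0 (without Taf4asKO replicate 1) to 3 (without Taf4asKO replicate 2) when a library was left out. The causes were not tested.

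Over all tested peaks, calls numbered 45 in the reported fit, 129 with equal medians, 61 with equal totals, 79 (54 of them higher in Taf4asKO) when centred on strong peaks, 58 with a pseudocount of 5, 219 with weights, 0 of 7196 without a minimum and 0 without any one library. In the reported fit 16 of the calls were higher and 29 lower, and with equal totals 30 were higher. With the replicate number as a block there were 31 calls, 3 higher and 28 lower, 0 of them in members, and the member median was −0.13. The numbers share no stated origin: deviations of same-numbered libraries correlated at −0.088 over 4746 peaks and at 0.26 over the 971 strong peaks. Counting peaks under any symbol within 1000 bases gave 20 members instead of 16. With 2 libraries a genotype and a median of 4.91 reads a peak in Control replicate 2, small differences at weak peaks were not detectable.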
